A study of Mus musculus with 8 samples.

Results

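The immediate early transcription factors of the AP-1 and Egr families were read in the ventral lobe of the mouse prostate. The members are 10 genes, Egr1, Egr2, Fos, Fosb, Fosl2, Jun, Junb, Jund, Atf3 and Ier2, and every probe set annotated to exactly 1 of these symbols was taken. They are 10 of the 12393 genes measured, and gave 12 probe sets of the 22626 tested, with 2 each for Egr2 and Jun and 1 for each of the other genes. The tissue came from male FVB mice aged 8 weeks. The groups were 4 arrays from mice transgenic for the polyoma virus middle T antigen, here called MT, and 4 arrays from wild-type mice of the same strain, sex and age. Middle T is a viral membrane protein that engages Src-family kinases, the adaptor Shc and phosphatidylinositol 3-kinase. No promoter is named for the transgene in the labels. They also do not say that each array stands for its own animal, so every p-value below rests on array-to-array spread, part of which may be technical.

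Immediate early genes are transcribed within minutes of a growth factor, a cytokine or mechanical stress, without new protein synthesis, and their RNAs decay fast. ERK signalling acts on serum response factor and its ternary complex partners at these genes, and Jun kinases and CREB-type factors act beside it. Proteins of the Fos and Jun families pair through leucine zippers to form AP-1, while Egr1 and Egr2 are zinc finger factors that bind GC-rich sites and are restrained by the Nab co-repressors. In the prostate, Egr1 is known for its high level in human carcinoma, and tumour progression was slower in mouse models that lacked it.

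Stretches of 250 bases before the annotated start are shown for Fos, Jun and Atf3, which were at least 2-fold higher in MT by at least 1 probe set, and, as examples of members under that size, for Fosb and Egr2. They are RefSeq sequences of build GRCm38.p6, written 5′ to 3′, and capitals mark each match to a motif that was searched on both strands.
Fos, chr12:85473640-85473889, plus strand: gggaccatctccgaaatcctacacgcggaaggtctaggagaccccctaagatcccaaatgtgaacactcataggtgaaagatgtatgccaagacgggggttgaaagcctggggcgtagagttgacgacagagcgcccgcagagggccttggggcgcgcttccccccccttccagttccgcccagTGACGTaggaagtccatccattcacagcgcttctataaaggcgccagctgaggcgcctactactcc
Jun, chr4:95052223-95052472, minus strand: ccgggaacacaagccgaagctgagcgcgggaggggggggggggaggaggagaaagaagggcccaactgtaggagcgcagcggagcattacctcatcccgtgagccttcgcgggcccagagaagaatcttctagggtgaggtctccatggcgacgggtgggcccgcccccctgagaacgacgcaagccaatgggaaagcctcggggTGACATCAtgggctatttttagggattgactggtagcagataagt
Atf3, chr1:191183334-191183583, minus strand: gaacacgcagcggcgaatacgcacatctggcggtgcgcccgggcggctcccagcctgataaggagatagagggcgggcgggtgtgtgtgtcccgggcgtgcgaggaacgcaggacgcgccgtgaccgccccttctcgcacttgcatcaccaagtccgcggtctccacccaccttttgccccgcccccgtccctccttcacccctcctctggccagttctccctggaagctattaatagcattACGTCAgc
Fosb, chr7:19310046-19310295, minus strand: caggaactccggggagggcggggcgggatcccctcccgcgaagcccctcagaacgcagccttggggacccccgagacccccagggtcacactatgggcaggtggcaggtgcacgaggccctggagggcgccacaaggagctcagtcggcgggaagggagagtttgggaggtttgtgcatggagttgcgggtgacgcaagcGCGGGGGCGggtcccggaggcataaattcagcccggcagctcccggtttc
Egr2, chr10:67537619-67537868, plus strand: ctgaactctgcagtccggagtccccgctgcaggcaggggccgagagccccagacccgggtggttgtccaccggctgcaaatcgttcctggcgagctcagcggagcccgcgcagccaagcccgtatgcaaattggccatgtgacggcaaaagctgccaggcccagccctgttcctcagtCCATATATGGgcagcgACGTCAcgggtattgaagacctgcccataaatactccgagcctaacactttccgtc

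The motifs were TGACGTCA (the full cyclic AMP response element), TGACNTCA (which takes in TGACGTCA and the variant of the Jun promoter), TGACGT (part of TGACGTCA), TGANTCA (the AP-1 element), GCGNGGGCG (the Egr element) and the CArG box of serum response factor. RefSeq entries were found for 8 of the 10 genes, in 12 windows, of which 5 belong to Egr2. Egr1 and Ier2 had no entry. The Fos window held TGACGT from base 66 to base 61 before the start, Atf3 held it on the other strand from base 8 to base 3, and Egr2 held it as well. TGACGT occurred in 6.47% of all 32851 windows of this length. The Jun window held TGACATCA from base 45 to base 38 before the start, a form of TGACNTCA, which occurred in 7.49% of all windows. The Fosb and Fosl2 windows each held GCGGGGGCG, and GCGNGGGCG occurred in 4.70% of all windows. A CArG box lay in 4 of the 5 Egr2 windows, which overlap in part, against 1.47% of all windows. The printed Egr2 window holds it as CCATATATGG from base 72 to base 63 before the start. TGACGTCA and TGANTCA were in 0 of the 12 windows, against 1.55% and 6.75% of all windows. A match is a description of these letters only.

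Levels are log2 values after RMA, and differences are log2 fold changes, MT minus wild type, with standard errors from a limma fit over all 22626 probe sets. A call is a Benjamini-Hochberg adjusted p under 0.05 over those probe sets. Means are given with SD and n = 4 arrays per group, and arrays are listed from 1 to 4. Of the 12 probe sets, 9 were higher in MT and 0 lower, which covers 8 of the 10 genes, where 18.1% of all probe sets were called higher. The log2 fold change was at least 1 for 4 of the 12, namely Egr1, Fos, Jun and Atf3, against 2.56% of all probe sets. All 4 MT values lay above all 4 wild-type values for 10 of the 12, against 18.1% of all probe sets. These 10 include both Egr2 probe sets, which read near background, and the dimmer of them was not called. In a limma test against a minimum change of 0.5 (treat), 6 of the 12 passed, against 3.43% that were higher among all probe sets. The median log2 fold change was 0.75 over the 12 probe sets and -0.01 over all probe sets. The members, and the lists read below, were chosen with earlier results of these data known. Their shares beside those of all features are therefore a description and not a test. Levels of different probe sets are not compared, since each has its own response.

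**Figure D1:**
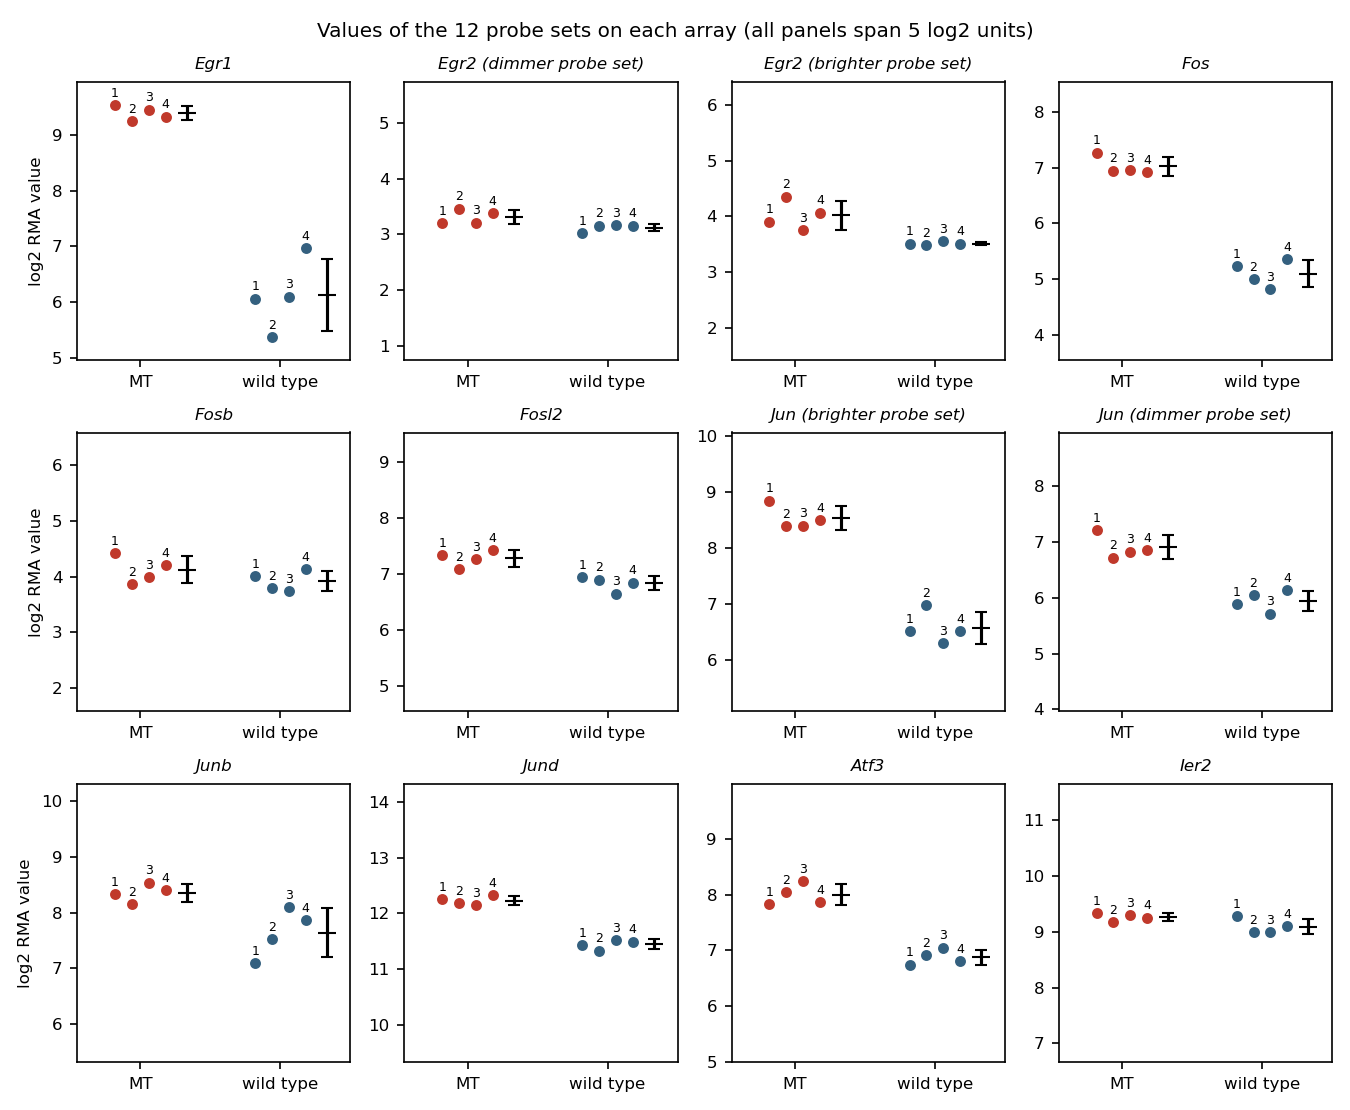
Log2 RMA values of the 12 probe sets, with 1 dot per array (numbered 1 to 4), MT left of wild type, and the mean ± SD of each group beside the dots. The groups are apart for 10 probe sets and overlap for Fosb and Ier2. Egr1 has MT values from 9.25 to 9.53 above wild-type values from 5.38 to 6.97.

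Egr1 showed the largest change of the members. Its probe set read 9.53, 9.25, 9.45 and 9.33 on the MT arrays, against 6.06, 5.38, 6.10 and 6.97 on the wild-type arrays. The 4 MT arrays lay within 0.29 of each other and the wild-type arrays within 1.59, with array 4 the highest of them and array 2 the lowest. The mean was 9.39 ± 0.13 in MT and 6.13 ± 0.65 in wild type, a log2 fold change of 3.26 ± 0.25 (95% interval 2.71 to 3.82, 9.59-fold, limma adjusted p = 2.51e-06). The lowest MT array was 2.28 above the highest wild-type array. The difference was 3.01 without wild-type array 2, 3.54 without wild-type array 4 and 3.59 when that array and MT array 2 were both left out.

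Egr2, the relative of Egr1 best known from Schwann cells and the hindbrain, was measured near the floor of the arrays. The 12 probe sets for Bacillus transcripts, used here as a guide to background, spanned 2.57 to 3.90. Its brighter probe set read 3.91, 4.35, 3.75 and 4.07 on the MT arrays, each above the highest of these controls on its own array. It read 3.51, 3.48, 3.55 and 3.51 on the wild-type arrays, each at or below that control. The difference was 0.51 ± 0.11 (limma adjusted p = 0.00377). Set against the higher of its own value and the control on each wild-type array, Egr2 was 1.27-fold higher by group means. That comparison uses the control readings, which come from other probe sets, and no interval or test was computed for it. The dimmer probe set read 3.21, 3.46, 3.21 and 3.38 in MT, against 3.02, 3.16, 3.16 and 3.16 in wild type. All 8 of these values were at or below the highest control of their array, so no fold is given, and the difference did not pass (limma adjusted p = 0.075).

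Fos, the founding member of its family and a partner of Jun proteins, was higher in MT. Its probe set read 7.27, 6.94, 6.95 and 6.92 on the MT arrays, against 5.23, 4.99, 4.82 and 5.36 on the wild-type arrays. MT array 1 stood above the other MT arrays, and the groups were 1.57 apart at their nearest values. The mean was 7.02 ± 0.16 in MT and 5.10 ± 0.24 in wild type, a log2 fold change of 1.92 ± 0.12 (95% interval 1.65 to 2.19, 3.79-fold, limma adjusted p = 6.12e-07).

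Fosb, a Fos relative that is induced by the same stimuli in many tissues, did not pass. It read 4.42, 3.86, 3.99 and 4.21 in MT, against 4.01, 3.80, 3.74 and 4.13 in wild type, and the groups overlapped. MT array 1 was again the highest array of its group and wild-type array 4 of its own. Fosb differed by 0.20 ± 0.13, with a 95% interval from -0.08 to 0.48 (limma adjusted p = 0.245), and 1 of the 4 wild-type values was at or below the highest Bacillus control of its array. The difference was 0.10 without MT array 1, 0.29 without MT array 2 and 0.36 without both MT array 2 and wild-type array 4 (limma adjusted p = 0.054).

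Fosl2 encodes Fra-2, a Fos family member that lacks the strong activation domain of Fos. Its probe set read 7.34, 7.08, 7.27 and 7.42 in MT, against 6.94, 6.90, 6.65 and 6.85 in wild type. The groups were 0.14 apart at their nearest values. Fosl2 rose by 0.44 ± 0.09 (1.36-fold, limma adjusted p = 0.00256).

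Jun, the main DNA-binding partner of Fos, rose by both of its probe sets, by different amounts. The brighter probe set read 8.85, 8.39, 8.40 and 8.50 in MT, against 6.51, 6.98, 6.29 and 6.51 in wild type, a log2 fold change of 1.96 ± 0.14 (3.90-fold, limma adjusted p = 1.71e-06). The dimmer one read 7.21, 6.72, 6.83 and 6.85 in MT, against 5.88, 6.05, 5.71 and 6.13 in wild type, a log2 fold change of 0.96 ± 0.12 (1.94-fold, limma adjusted p = 8.47e-05). In both, MT array 1 was the highest and MT array 2 the lowest of the MT arrays, and wild-type array 3 was the lowest of all. Averaged over both probe sets in a fit by gene, the difference was 1.46.

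Junb, a Jun family member that often restrains Jun, varied most among the wild-type arrays of the Jun family. It read 8.33, 8.15, 8.54 and 8.40 in MT, against 7.09, 7.53, 8.10 and 7.86 in wild type. The groups nearly met, since the lowest MT value was 0.05 above the highest wild-type value. Junb rose by 0.71 ± 0.18 (95% interval 0.31 to 1.11, limma adjusted p = 0.00927), with values from 0.53 without wild-type array 1 to 0.86 without wild-type array 3.

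Jund, the Jun family member that most cells make without a stimulus, was higher in MT. It read 12.26, 12.18, 12.15 and 12.33 in MT, against 11.43, 11.33, 11.53 and 11.50 in wild type. Values within each group lay close together and the groups were 0.63 apart. Jund rose by 0.78 ± 0.07 (1.72-fold, limma adjusted p = 7.46e-06).

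Atf3, a stress-induced factor of the ATF family that pairs with Jun proteins and can repress its targets, was higher in MT. It read 7.83, 8.04, 8.24 and 7.86 in MT, against 6.74, 6.91, 7.05 and 6.81 in wild type. Array 3 was the highest and array 1 the lowest of either group, and the groups were 0.78 apart. Atf3 rose by 1.11 ± 0.10 (2.17-fold, limma adjusted p = 8.60e-06).

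Ier2, an immediate early nuclear protein without the zipper of AP-1, did not pass. It read 9.33, 9.17, 9.30 and 9.26 in MT, against 9.28, 8.99, 8.99 and 9.10 in wild type. Wild-type array 1 lay among the MT arrays and the other wild-type arrays lay below all of them. Ier2 differed by 0.18 ± 0.08, with a 95% interval from 0.0019 to 0.35 (limma adjusted p = 0.105). Without wild-type array 1 it was 0.24 and passed (limma adjusted p = 0.0262).

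**Figure D2:**
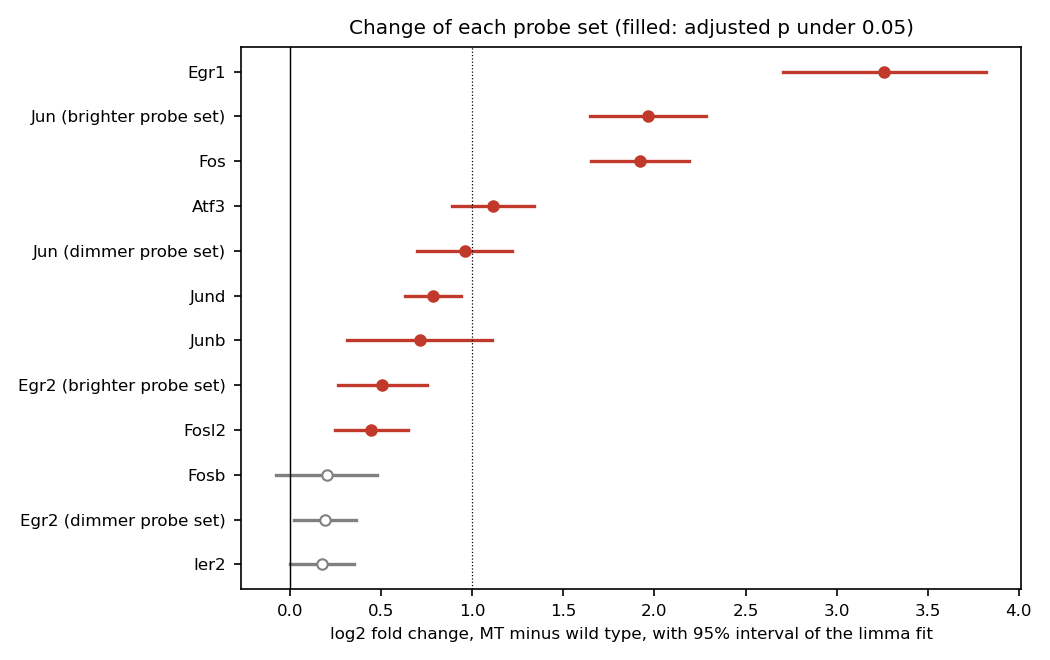
Log2 fold change of each probe set, MT minus wild type (points), with the 95% interval of the limma fit (lines), ordered by size. Filled red points passed an adjusted p of 0.05, open grey points did not, and the dotted line marks a log2 fold change of 1. Egr1 at 3.26 is followed by Jun (brighter probe set) at 1.96, Fos at 1.92 and Atf3 at 1.11.

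Changes were set against each other within the Fos and Jun families, in contrasts that were chosen after the values were seen. Each was tested on the difference between both probe sets within every array, by a two-sided exact permutation test, which has 70 ways to assign the arrays and cannot give a p below 0.0286. Of 9 such contrasts, 5 reached that p. The Benjamini-Hochberg adjusted value of these 5 was 0.0514 over the 9, so they did not pass 0.05. With 5 of 9 at the smallest p the test can give, no larger difference in these 5 could have lowered that value. With a contrast of Egr1 and Egr2 counted as well, the adjusted value was 0.0476. The wild-type Egr2 readings were at background, however, and no difference from Egr1 is given. The change of Fos exceeded that of Fosb by 1.72 and that of Fosl2 by 1.48. Fosb read near background, with 1 of its 4 wild-type values at or below the highest Bacillus control of its array. This limits what change can be seen in Fosb, and so every contrast with it. The change of Jun (brighter probe set) exceeded that of Junb by 1.25 and that of Jund by 1.18.

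The fifth contrast at that p was between the Jun probe sets themselves, which differed by 1.01 although they read the same gene. With the dimmer probe set for Jun, its change exceeded that of Junb by 0.25 (exact permutation p = 0.429) and that of Jund by 0.17 (exact permutation p = 0.343). The order within the Jun family thus rested on which Jun probe set was read. Jund and Junb differed by 0.07 (exact permutation p = 0.743) and Fosl2 and Fosb by 0.24 (exact permutation p = 0.0857).

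Arrays did not rank the members in a common order. MT array 1 was the highest MT array for 6 of the 12 probe sets and MT array 2 the lowest for 7. Among the wild-type arrays, array 3 was the lowest for 6 probe sets and the highest for 5. Wild-type array 4 was above the group mean for 9 of the 12 and was the lowest for 0. The mean deviation from the group mean over the 12 probe sets ran from -0.07 to 0.09 on the MT arrays and from -0.06 to 0.14 on the wild-type arrays. For Egr1 the SD among MT arrays was 0.13 against 0.65 among wild-type arrays, and the SD was smaller in MT for 6 of the 12 probe sets.

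Immediate early RNAs also respond to the handling of tissue, so heat shock genes and RNA quality were read in the same arrays. Of 10 heat shock genes, 5 were higher and 0 lower in MT, with a median log2 fold change of 0.47, where 19.3% of all 12393 genes, each read from its brightest probe set, were called higher. The small heat shock protein gene Hspb1 rose by 1.34 ± 0.10 and the mitochondrial chaperone gene Hspe1 by 0.41 ± 0.08. Hsp90aa1, a cytosolic chaperone, rose by 0.54 ± 0.16 (limma adjusted p = 0.0199) and Hspd1, the partner of Hspe1, by 0.39 ± 0.11 (limma adjusted p = 0.016). The Hsp90aa1 call was lost without MT array 1, 2 or 4 (limma adjusted p from 0.0512 to 0.0533) and that of Hspd1 without MT array 2 (limma adjusted p = 0.0514). Without both MT array 2 and wild-type array 4, Hsp90aa1 differed by 0.34 (limma adjusted p = 0.0531) and Hspd1 by 0.30 (limma adjusted p = 0.111).

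The inducible chaperone genes Hspa1a and Hsph1 were chosen after their values were seen. Hspa1a read 11.02, 10.58, 8.89 and 9.79 in MT, against 9.29, 9.44, 8.69 and 7.16 in wild type (limma adjusted p = 0.0529). Hsph1 read 10.31, 10.26, 9.53 and 10.17 in MT, against 9.44, 9.90, 9.41 and 8.24 in wild type (limma adjusted p = 0.0507). MT array 1, where Egr1, Fos and both Jun probe sets were the highest of all arrays, also had the highest Hspa1a and Hsph1. Wild-type array 4, where Egr1 and Fos were the highest of their group, had the lowest Hspa1a and Hsph1 of all arrays. MT array 3 had the lowest Hspa1a of its group, below 2 wild-type arrays, while its Egr1 was 9.45. Both genes were higher in MT between all 4 same-numbered arrays, and with the array number as a block both passed (limma adjusted p = 0.0089 for Hspa1a and 0.0349 for Hsph1). Both also passed without MT array 3 (limma adjusted p = 0.0181 for Hspa1a and 0.0304 for Hsph1). The same held without wild-type array 2 (limma adjusted p = 0.032 for Hspa1a and 0.0148 for Hsph1). Without wild-type array 4, Hspa1a differed by 0.92 and Hsph1 by 0.49, against 1.42 and 0.82 with it. Without both that array and MT array 2, they differed by 0.75 (limma adjusted p = 0.243) and 0.42 (limma adjusted p = 0.155).

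**Figure D3:**
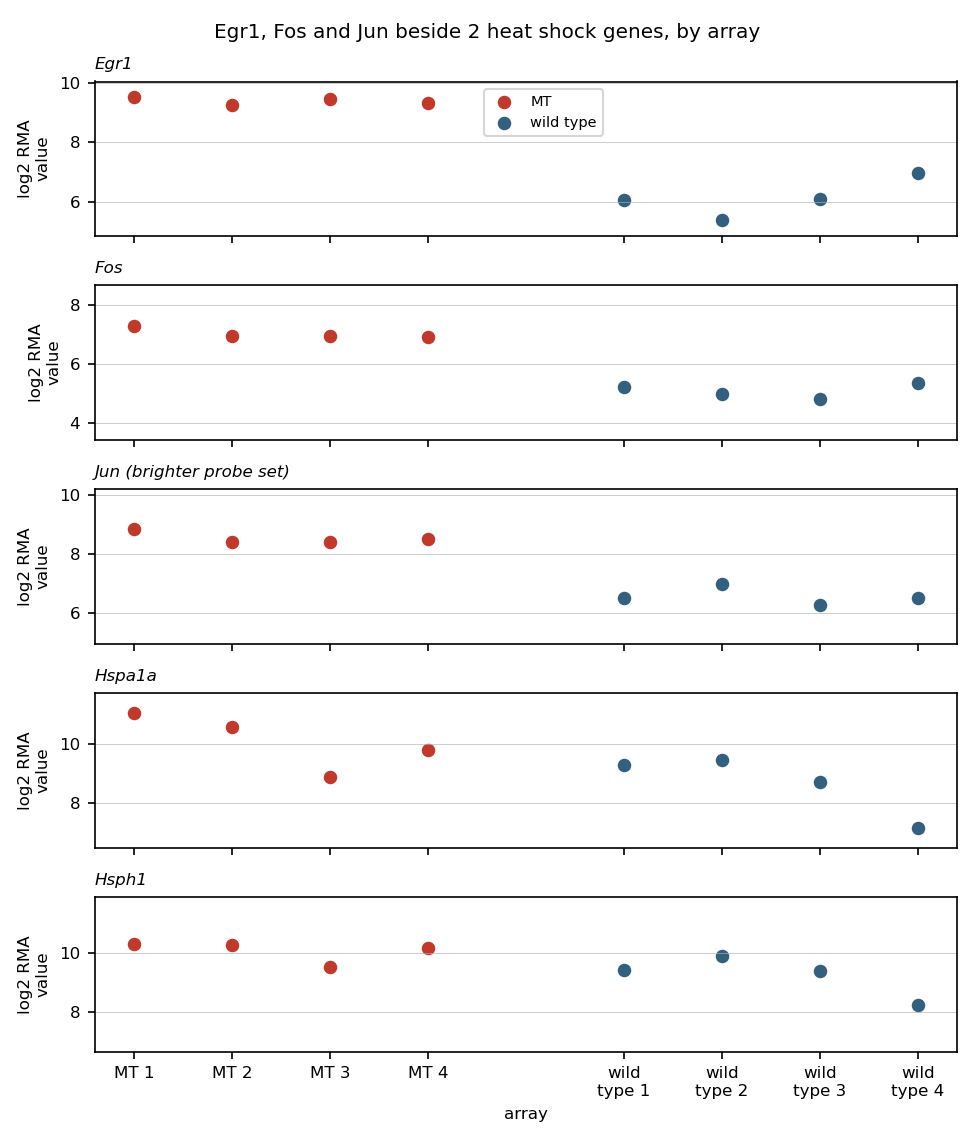
Log2 RMA values of Egr1, Fos and Jun (brighter probe set) above those of the heat shock genes Hspa1a and Hsph1, with 1 dot per array, MT arrays on the left and wild-type arrays on the right, each panel spanning the same number of log2 units. The groups are apart in the upper panels and overlap for Hspa1a and Hsph1. MT array 1 is the highest in every panel, and wild-type array 4 is the lowest for both heat shock genes.

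The log2 value of the 3′ control probe set minus that of the 5′ one, a measure of RNA breakdown, was 0.51 ± 0.09 in MT and 0.70 ± 0.17 in wild type for Gapdh (two-sided exact permutation p = 0.0857, n = 4 each). For Actb it was 0.73 ± 0.12 in MT and 0.91 ± 0.14 in wild type (exact permutation p = 0.114, n = 4 each), and the adjusted p over both was 0.114. Whether handling or RNA quality had a part in the members' changes was not tested.

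Markers of other cells moved in the same arrays, and in whole tissue fewer cells of a type and less RNA per cell cannot be told apart. Of 6 secretory and luminal genes, 3 were higher (the keratins Krt8 and Krt18 and the homeobox gene Hoxb13, named after their values were seen) and 3 lower in MT, with Pbsn at -4.16 ± 0.29 and Spink1 at -3.03 ± 0.09 on the log2 scale. Both secretory genes stayed far above background, at 9.12 and 10.77 in MT and at 13.28 and 13.81 in wild type. Of 8 smooth muscle genes, 8 were lower in MT, with a mean level from 8.06 to 8.85 on the MT arrays and from 9.06 to 9.78 on the wild-type arrays. Of 7 fibroblast genes, 6 were lower (7.69 to 8.28 in MT, 8.47 to 9.17 in wild type), and of 5 basal epithelial genes, 3 were lower (6.83 to 6.94 in MT, 7.21 to 7.88 in wild type). Across all genes, 19.3% were called higher and 20.7% lower.

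Leukocyte markers were higher in part, where 19.3% of all genes were called higher and 20.7% lower. Of 11 macrophage genes, 5 were higher and 1 lower, with a mean level from 7.0 to 7.21 in MT and from 6.37 to 6.98 in wild type. The pan-leukocyte gene Ptprc rose by 1.81 ± 0.22. Of 8 granulocyte genes, 3 were higher (5.29 to 5.66 in MT, 4.56 to 4.67 in wild type), with S100a8 at 3.33 ± 0.14 while Mpo and Elane, named after their values were seen, did not pass. Of 7 T and B cell genes, 3 were higher (5.11 to 5.92 in MT, 4.90 to 4.96 in wild type), all of them T cell genes (Cd3e, Cd3g and Cd4). The Cd4 call was lost when its probe sets were averaged (0.13, limma adjusted p = 0.0613). MT array 2 stood apart in this list. The B cell gene Cd79b, named after its values were seen, read 6.85 there and 4.99 to 5.27 on the other MT arrays, against 4.76 to 4.89 in wild type. Cd3g read 5.23 there and 4.06 to 4.30 on the other MT arrays, against 3.57 to 3.99 in wild type. The highest Bacillus control of each wild-type array lay from 3.52 to 3.90, so Cd3g read near background in wild type. Of 7 endothelial genes, 1 was lower (4.83 to 4.91 in MT, 4.69 to 5.04 in wild type). Of 7 seminal vesicle and bladder genes, 1 was lower, the uroplakin Upk1a (-2.65 ± 0.17), and 2 were at or below the Bacillus controls on every array. The part of cell make-up in the members' changes was not tested.

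Partners of the members were read next, each gene from its brightest probe set. Of 14 other basic zipper genes that can pair with Fos, Jun or ATF proteins, 3 were higher and 1 lower in MT. Their median log2 fold change was 0.04. This was 21.4% higher and 7.1% lower, against 19.3% and 20.7% of all genes, so the share that rose was near that of all genes. The small Maf genes, whose proteins lack an activation domain, were the 3 that rose: Mafg by 0.47 ± 0.07, Maff by 0.43 ± 0.10 and Mafk by 0.37 ± 0.08. The other Mafg probe set differed by 0.20 without passing, with 0.34 averaged over both. Atf5, a stress-response factor, fell (-0.66 ± 0.08, limma adjusted p = 6.23e-05). Atf2 and Atf4, named after their values were seen, did not pass by their brightest probe sets (limma adjusted p = 0.0801 and 0.184). Of the other Atf2 probe sets (-0.39 to -0.25), 2 were called lower and 1 did not pass. Of the other Atf4 probe sets, 1 was called lower (-0.48) and 1 did not pass. Fosl1, which encodes Fra-1 and was chosen after its values were seen, had a mean of 4.41 ± 0.03 in MT and 4.34 ± 0.11 in wild type, and the difference did not pass (limma adjusted p = 0.495).

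Where 19.3% of all genes were called higher and 20.7% lower, 2 of 5 Egr relatives and co-repressors were higher and 0 lower. These were Nab1 (0.51 ± 0.08, limma adjusted p = 0.000465) and Nab2 (0.34 ± 0.08, limma adjusted p = 0.00692), whose proteins bind Egr1 and Egr2 and restrain them. Egr3 and Egr4, chosen after their values were seen, differed by -0.05 ± 0.06 (limma adjusted p = 0.608) and 0.08 ± 0.08 (limma adjusted p = 0.501).

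Factors and kinases that act upstream came next. Of 17 measured, 6 were higher and 2 lower, against 19.3% and 20.7% of all genes. The median was 0.06, with a range from -0.42 to 0.35. Srf, the serum response factor itself, fell by its brightest probe set (-0.42 ± 0.09, limma adjusted p = 0.00273), while its other probe set was 0.21 higher in MT without passing. Averaged over both, Srf differed by -0.10 (limma adjusted p = 0.289). Mapkapk2, a kinase downstream of p38, rose by 0.35 ± 0.06, Creb1 by 0.30 ± 0.08 and Map2k4, a kinase of the Jun kinase pathway, by 0.24 ± 0.08. The Map2k4 call was lost without wild-type array 2 or MT array 1, 3 or 4 (limma adjusted p from 0.0653 to 0.0738) and when its probe sets were averaged (0.06, limma adjusted p = 0.467). The Creb1 call was lost when both MT array 2 and wild-type array 4 were left out (limma adjusted p = 0.0612).

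Of 39 other immediate early genes, 20 were higher and 3 lower in MT, with a median of 0.25, against 19.3% and 20.7% of all genes. The polo-like kinase gene Plk2 rose by 2.51 ± 0.12, with 9.0 ± 0.26 in MT and 6.48 ± 0.15 in wild type. Ier3, a regulator of apoptosis, rose by 1.33 ± 0.13, the zinc finger factor Klf6 by 1.29 ± 0.08 and the zipper factor Cebpd by 1.25 ± 0.18. The other Cebpd probe set had a difference of 0.04 that did not pass, and the average over both was 0.65.

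Of 25 genes known as AP-1 or Egr1 targets in other tissues, 11 were higher and 2 lower, against 19.3% and 20.7% of all genes. The median was 0.16, and 4 of the 25 were at or below the Bacillus controls on every array. Sphk1, the sphingosine kinase, rose by 3.12 ± 0.11 (8.69 ± 0.05 in MT, 5.57 ± 0.26 in wild type), with 0.90 for its other probe set and 2.01 averaged over both. Cd44, a hyaluronan receptor, rose by 2.19 ± 0.10 and by 1.90 in its other probe set. Icam1, an adhesion molecule for leukocytes, rose by 1.17 ± 0.12 and Timp1, an inhibitor of matrix proteases, by 0.82 ± 0.08. In the same arrays 5 of 11 macrophage and 3 of 8 granulocyte markers were higher and 1 macrophage marker was lower, as given above. Their part in these rises was not tested.

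**Figure D4:**
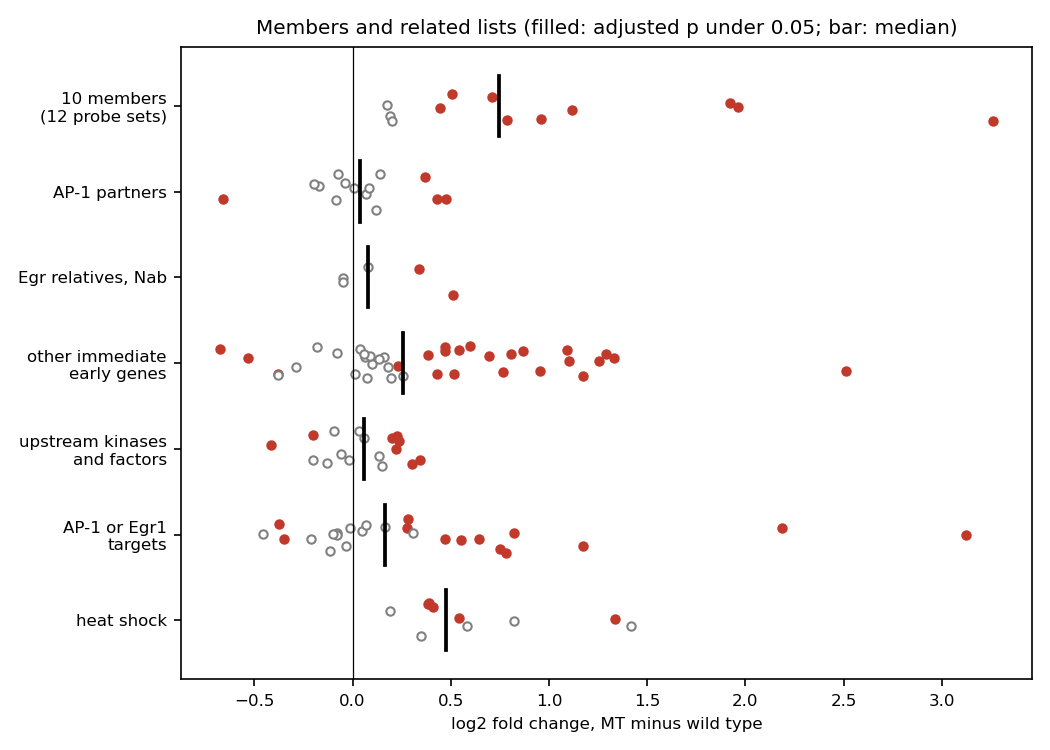
Log2 fold change (MT minus wild type) of each member probe set, top row, and of each gene of 6 related lists below it, read from its brightest probe set. Filled red points passed an adjusted p of 0.05, open grey points did not, and black bars are medians, at 0.75 for the members and from 0.04 to 0.47 for the lists.

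Profiles most like those of the 4 members with a log2 fold change of at least 1 were found by the root mean square distance over 8 arrays, after each gene's wild-type mean was subtracted, among 12383 other genes. Nearest to Egr1 were Sphk1 (0.35), the endothelin gene Edn1 (0.36) and the platelet chemokine gene Ppbp (0.39). Ppbp had a mean of 3.85 ± 0.21 in wild type, near background. Nearest to Fos were Emp2 (0.16), H2-K1 (0.18) and Stmn1 (0.21), and nearest to Jun were Stmn1 (0.17), Gpx2 (0.20) and Pbk (0.22). Atf3 had the closest neighbours: Gadd45b (0.09), Nfkbia (0.11) and Pml (0.12). The measure is dominated by the size of the group difference, so a small distance says that a gene differed between MT and wild type by a like amount.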

How the data were processed

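RNA of 8 samples of ventral prostate, labelled with biotin, was hybridised to Affymetrix arrays. As deposited, values are log2 and come from RMA, per the submitters' processing notes, which give no version here. RMA corrects background, normalizes by quantiles and summarises probes. All 8 columns were used as deposited, and the arrays' medians ran from 6.21 to 6.23. Of 22690 probe sets, 64 controls were left out and 22626 were tested with limma 3.58.1 in R 4.3.3 (lmFit and eBayes, two-sided, no covariate, no filter on low values). The platform annotation gave 20380 probe sets a single symbol, covering 12393 genes. The number of arrays limits the precision. The fit was tested on simulated data with normal noise and 200 changed probe sets, far fewer than the 8552 called here. Changes of 0.5 were recovered in 66% of cases and changes of 1 in 95.8%, and 3.56% of calls were false. These shares may not hold for the real data, where many more probe sets differed.

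The members and the 15 lists were chosen with earlier results of these data known. Genes named were all members, the most changed genes among those called in each list (at most 4, or 2 for cell types), else the brightest gene, and the 3 nearest profiles of each member past the threshold with a log2 fold change of 1 or more. The text says where a gene was picked outside this rule. Alternatives were a replicate block, another prior, array weights, other probe set rules, stricter thresholds, new centring or quantile scaling, leaving out probe sets below the median level, and leaving out single arrays. A fit with neither MT array 2 nor wild-type array 4 was chosen after seeing the data. Figures were drawn with matplotlib 3.10.9 in Python 3.11.15.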

Additional observations from a re-analysis of the deposited data

Results flagged for a closer look

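The highest or lowest array of a group stood far from the other 3 in 11 of 150 groups of 4 arrays (members and named genes); the ratio below is the gap to the nearest array over the whole range, past Dixon's 95% critical value. Chance alone flags about 5% of groups. Among the members, Fos on MT array 1 read 7.27, against 6.92 to 6.95 on the other MT arrays (ratio 0.921), and Egr2 (dimmer probe set) on wild-type array 1 read 3.02, against 3.16 on the others (ratio 0.957). MT array 1 was also the high one for the immediate early genes Arc (6.85 against 6.66 on the others, ratio 0.979) and Ier5 (6.71 against 6.56 to 6.58, ratio 0.846). MT array 3 was high for Icam1 (6.35 against 6.04 to 6.09, ratio 0.849) and low for Hsp90aa1 (11.34 against 11.62 to 11.63, ratio 0.955). MT array 2 was low for Map2k4 (6.95 against 7.06 to 7.08, ratio 0.862) and S100a8 (6.99 against 7.59 to 7.70, ratio 0.837), and MT array 1 was low for Cd4 (5.59 against 5.68 to 5.69, ratio 0.907). Wild-type array 2 was low for Dcn (11.49 against 11.78 to 11.81, ratio 0.911), and wild-type array 4 was low for the clock gene Per1 (7.32 against 7.81 to 7.89, ratio 0.858).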

How the results depend on the processing

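All 9 calls among the 12 member probe sets held under the alternatives that tested them, except the test against a minimum change of 0.5, which 6 passed. The filter at the median level kept 8 of the 12, of which 7 were called. Of 210 other values for the members, 208 kept direction and side of the threshold, the exceptions being Ier2 without wild-type array 1 and Egr2 averaged over its probe sets, whose readings were mostly at background. With the array number as a replicate block, 9 of 12 were called and 8633 probe sets in all, against 8552 without it. Deviations from the group means of same-numbered arrays correlated at 0.08 to 0.16 over probe sets, not all over 0.1, so the numbers were not taken as pairs. Over 1 probe set per gene all 4 correlations were over 0.1 (0.104 to 0.184). Other-numbered arrays correlated at -0.17 to 0.03 over probe sets. Deviations from a group mean cancel within the group, so higher same-numbered correlations pull the other-numbered ones down. The other-numbered values are therefore no independent comparison. The check was close to its limit, and each array correlated best with its own number. The block also moved Hspa1a and Hsph1 past the threshold, as given above. So did the brightest probe set per gene, the filter at the median level, and leaving out wild-type array 2 or MT array 3. Leaving out wild-type array 1 did so for Hspa1a only. Array weights, new centring and quantile scaling did so for Hsph1 only. The other alternatives left both genes short of the threshold. Leaving out single arrays gave 9 to 10 called member probe sets, 7355 to 8377 called probe sets and 44 to 55 called genes of the 110 in the 6 pathway lists, against 55. The number called over the whole table was 5088 with the brightest probe set per gene and 5112 with the average (12393 tested in either), and 1379 against a minimum change of 0.5. Of the list genes, 36 passed at an adjusted p under 0.01 and 14 against that minimum. The 3′ minus 5′ difference between groups ran from -0.24 to -0.12 for Gapdh and from -0.25 to -0.13 for Actb when single arrays were left out. Signs turned for Fosl1 averaged over its probe sets (-0.046) and for Myc when single arrays were left out (-0.033 to 0.044), neither of which passed in any fit. Readings near background, as for Egr2 and Fosb, limit what differences can be seen. The causes of these shifts were not tested.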

Other observations

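Further immediate early genes, chosen after their values were seen, differed in direction. Arc, best known as an activity-regulated gene of neurons, rose by 1.17 ± 0.07 (6.71 ± 0.10 in MT, 5.53 ± 0.08 in wild type). Nfkbiz, an inducible regulator of NF-kB, rose by 1.10 ± 0.08, the stress gene Gadd45b by 1.09 ± 0.10, Ier5 by 0.95 ± 0.10 and the antiproliferative gene Btg2 by 0.87 ± 0.13. The other Nfkbiz probe set rose by 2.14, with 1.62 averaged over both. Of the other Gadd45b probe sets, 1 rose by 0.66 and 1 differed by 0.07 without passing, with 0.61 averaged over all 3. The other probe sets of Ier5, 2 in number, differed by 0.01 and 0.17 without passing, with 0.38 averaged over all 3. Nr4a1, an orphan nuclear receptor often induced together with Egr1, differed by 0.08 ± 0.09 (limma adjusted p = 0.557), Ptgs2, the inducible cyclooxygenase, by 0.09 ± 0.09 (limma adjusted p = 0.485) and Myc by 0.01 ± 0.07 (limma adjusted p = 0.922).

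The 3 immediate early genes lower in MT were Hes1, a target of Notch (-0.53 ± 0.10, limma adjusted p = 0.00132), Per1 (-0.38 ± 0.12, limma adjusted p = 0.0253) and Ccn2, a matrix protein gene (-0.68 ± 0.22, limma adjusted p = 0.0346). Ccn2 had a mean of 8.41 ± 0.10 in MT and 9.08 ± 0.58 in wild type. Its call was lost without any single array but wild-type array 2 (limma adjusted p from 0.0620 to 0.0918) and under another prior (limma adjusted p = 0.0662). The Per1 call was lost without wild-type array 1, 2 or 3 or MT array 1 or 4 (limma adjusted p from 0.0521 to 0.0747). Smooth muscle and fibroblast markers were lower in the same arrays, and their part in these falls was not tested.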
